A study of Mus musculus with 54 samples.

Results

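The 35 genes described here encode the chaperones, folding enzymes, stress sensors, degradation machinery and entry and exit routes of the endoplasmic reticulum (ER), together with the transcription factors of the unfolded protein response. They were listed by name and not by a cutoff on a measured value, but with earlier results of these data known. All 35 were measured, out of 19920 genes on the array. A gene was taken from the gene-level table, through probe sets listed with exactly 1 symbol, and by the probe set with the highest mean where it had several (3 of the 35 genes).

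The cells were Ba/F3-gp130, a mouse line labelled as pro-B, which carries the signalling receptor chain gp130 and depends for growth on Hyper-IL-6, interleukin-6 joined to its own soluble receptor. Besides the untransfected parental line there were 3 lines with a Cargo Internalization Receptor construct, named CIR-1, CIR-2 and CIR-3. There was for each line an unstimulated group and a group given 50 µl of GFP-PFC, an emulsion of fluorocarbon, in 1 ml for 1 h. A further parental group had 100 ng/ml Hyper-IL-6 for 1 h. All lines, parental cells included, carry gp130, were grown with 10 ng/ml Hyper-IL-6, and were washed 4 times and kept 3 h without serum before stimulation. The 9 groups held 3 arrays each, 27 in all. The labels do not say whether a line is a single clone, or whether separate cultures stand behind the arrays of a group, so p values measure only the spread between these arrays.

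Proteins that enter the secretory pathway are folded in the ER by Hsp70, Hsp90 and lectin chaperones and by disulfide isomerases, and those that fail are moved back to the cytosol and degraded. When unfolded proteins accumulate, the membrane sensors Ire1 (Ern1), Perk (Eif2ak3) and Atf6 raise the transcription of this machinery through Xbp1, Atf4 and Atf6 itself. B-lineage cells use the Ire1 and Xbp1 branch to enlarge the ER when they become antibody-secreting cells.

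A promoter element known from genes of this kind is the ER stress response element (ERSE), through which Atf6 and Xbp1 are known to act together with the factor NF-Y. The RefSeq promoter table (GRCm38.p6, 250 bases before to 50 after a start) held 30 of the 35 genes, and lacked Atf6, Derl1, Hyou1, Manf and Sec61a1. The letters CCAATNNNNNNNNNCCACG, searched on both strands, occurred in 9 of these 30 genes, against 37 of the 27025 genes in the table (0.137%). The 9 were Hspa5, Hsp90b1, Calr, Canx, Pdia6, Dnajc3, Syvn1, Derl3 and Creld2. The related ERSE-II letters are ATTGG and CCACG with 1 base between them. They use the same 2 blocks, with the first turned around (ATTGG is the reverse complement of CCAAT) and at another spacing. A match of one kind is therefore not a match of the other. The ERSE-II letters occurred in 2 members, Herpud1 and Dnajb11, which are among the 12 of 27025 genes (0.0444%) that held them. No member held both kinds. The other 19 of the 30 held neither. The elements of 5 of the members that hold one are printed to show its letters, with 20 bases on each side, written 5′ to 3′ along the gene, with the matched letters in capitals.
Hspa5: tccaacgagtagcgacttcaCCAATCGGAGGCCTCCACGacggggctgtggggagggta
Calr: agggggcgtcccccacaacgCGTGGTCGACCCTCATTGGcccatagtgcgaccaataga
Pdia6: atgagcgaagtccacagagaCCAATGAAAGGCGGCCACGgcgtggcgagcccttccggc
Syvn1: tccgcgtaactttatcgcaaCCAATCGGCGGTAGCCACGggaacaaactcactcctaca
Herpud1: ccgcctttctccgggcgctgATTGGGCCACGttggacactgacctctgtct
These windows lie at chr2:34772005-34772063 on the plus strand for Hspa5, chr8:84847055-84847113 on the minus strand for Calr, chr12:17266471-17266529 (plus) for Pdia6, chr19:6046512-6046570 (plus) for Syvn1 and chr8:94386357-94386407 (plus) for Herpud1. The matched letters end 46 bases before the start of Hspa5, 143 before Calr, 79 before Pdia6, 25 before Syvn1 and 41 before Herpud1. Hsp90b1 held 2 copies, which end 193 and 88 bases before its start. The element reads in the opposite orientation in Calr, Derl3 and Creld2 and in the Hsp90b1 copy nearer the start. A match describes these letters and is not evidence of binding, and a window without it says nothing about the factor.

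Values are log2 signals. Differences are log2 differences from limma fitted to all 27 arrays, adjusted by Benjamini-Hochberg across 19920 genes, and a gene is called at an adjusted p under 0.05. "Percent called" below is the share of all genes called in the same comparison. Array medians lay between 7.77 and 7.98. Every member exceeded the lower quartile of the array (6.52 to 6.73) on all 27 arrays, and 29 of 35 exceeded the upper quartile (10.2 to 10.4) on all 27. In bulk RNA, a change in the number of cells of a kind and a change in RNA per cell cannot be told apart. Markers did not settle the pro-B label. Of 13 measured pro-B markers, 5 (Ptprc, Cd79a, Cd79b, Igll1 and Pax5) lay above the lower quartile on all 27 arrays, and 7 lay below it on all of them (Ebf1, Il7r, Rag1, Rag2, Dntt, Blnk and Cd24a). The same bar was met by 5 of 6 erythroid and megakaryocyte markers (Gata1, Klf1, Epor, Itga2b and Gp9), 3 of 4 T cell markers (Cd3e, Cd4 and Cd8a), 3 of 7 myeloid markers and 3 of 9 mast cell and basophil markers.

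The stimulated arrays are numbered 2, 4 and 6 and the unstimulated ones 1, 3 and 5, and the labels do not say what the numbers stand for. Arrays numbered 1 and 2 stood apart from the others within their groups, in 41.9% of all genes, and the line comparisons are also given within rounds. The deviations of arrays from their group means were correlated across genes in all 12 pairs of consecutive numbers within a line (r of 0.283 to 0.633), so these pairs are treated as rounds in a fit with a replicate block.

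The mean log2 signal over the 27 arrays is given in brackets for every member, as a level of its own probe set that is not comparable between genes. Among chaperones of the Hsp70 and Hsp90 systems and their cofactors, these were the ER Hsp70 Hspa5 (13.86), known as BiP, the ER Hsp90 Hsp90b1 (13.68), the nucleotide exchange factor Hyou1 (11.90), the J-domain partners of BiP Dnajb9 (10.81), Dnajb11 (12.15) and Dnajc3 (12.06), Sdf2l1 (12.08), the secreted stress protein Manf (11.50) and the disulfide isomerase-like Creld2 (11.92). The lectin chaperones calreticulin and calnexin were Calr (14.04) and Canx (13.82), and the disulfide isomerases were Pdia3 (13.01), Pdia4 (12.37), Pdia6 (13.47) and P4hb (13.11). The stress sensors Ern1 (10.02), Eif2ak3 (9.84) and Atf6 (11.45) were measured with the transcription factors Xbp1 (13.02), Atf4 (11.93) and Ddit3 (9.52), the last known as CHOP, and with Ppp1r15a (8.42), a phosphatase subunit that reverses the translational arrest set by Perk.

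Degradation was represented by Herpud1 (12.02), by Sel1l (11.77) and Syvn1 (10.62), the adaptor and the ligase of the retrotranslocation complex, by the mannosidase-like Edem1 (11.49) and Edem2 (10.98), and by the derlins Derl1 (11.54), Derl2 (11.09) and Derl3 (7.31). The translocon and its associated proteins were Sec61a1 (12.81), Sec61b (11.50), Ssr1 (13.10) and Ssr3 (12.96), and Sec24d (9.92) is a cargo-binding subunit of the COPII coat that leaves the ER. Group means varied little. The difference between the highest and the lowest of the 9 group means had a median of 0.21 over the members, against 0.20 over all genes, and its maximum was 0.67, for Ppp1r15a. The standard deviation of the group means was largest for Ppp1r15a (0.191), Ern1 (0.181) and Ddit3 (0.156).

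Most members stood highest in CIR-3, and the share of all genes that did so is not given here. Differences from parental cells are set beside all genes in the next paragraph. In 28 of 35 members the highest of the 9 group means belonged to a CIR-3 group (17 unstimulated, 11 with GFP-PFC), and in 30 of 35 the single highest array was a CIR-3 array. That array was unstimulated array 5 in 14 members, GFP-PFC array 6 in 7, unstimulated array 1 in 7 and GFP-PFC array 2 in 2.

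Each CIR line was compared with parental cells as a mean over both conditions (6 arrays a line). In CIR-3 against parental cells, Edem1, Derl1, Sel1l and Pdia6 rose, 4 of 35 members, with 4.2% of all genes called. No member fell. The difference was above 0 for 32 of 35 members, with a median of 0.12, against 40.3% of all genes and a median of -0.02. Among the 4363 genes above the upper quartile on all 27 arrays, which are more like the members in signal, it was above 0 for 61.3%, with a median of 0.02, and for 28 of the 29 members among them, with a median of 0.13. Centring each array on its median moved all genes to 60.1% above 0 (median 0.02) and the members to 34 of 35 (median 0.17).

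By role, the counts above 0 were as follows. All 9 chaperones and cofactors lay above 0 in CIR-3 against parental cells (median 0.13), with none called, and Hspa5 differed by 0.10 (SE 0.037, adjusted p = 0.162). Of the 6 lectin chaperones and isomerases 5 did (median 0.10, 1 called), of the 7 sensors and factors 6 (median 0.10, none called), of the 8 degradation genes 7 (median 0.16, 3 called), and of the 5 translocon and coat genes all 5 (median 0.13, none called). The 3 members below 0 were Derl3 at -0.06, Ddit3 at -0.03 and Canx at -0.01, none of them called. The 11 members with an ERSE or ERSE-II match had a median of 0.10, and the 19 with neither in the table had 0.12. Of the 10 members called in at least 1 comparison of lines or stimulations without a block, 8 were in the promoter table and 1, Pdia6, held such a match. Calls between array numbers, given below, are not counted here. They included Hsp90b1, Dnajc3, Creld2, Derl3, Herpud1 and Dnajb11, which hold a match, but not Hspa5, Calr, Canx, Pdia6 or Syvn1.

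**Figure D1:**
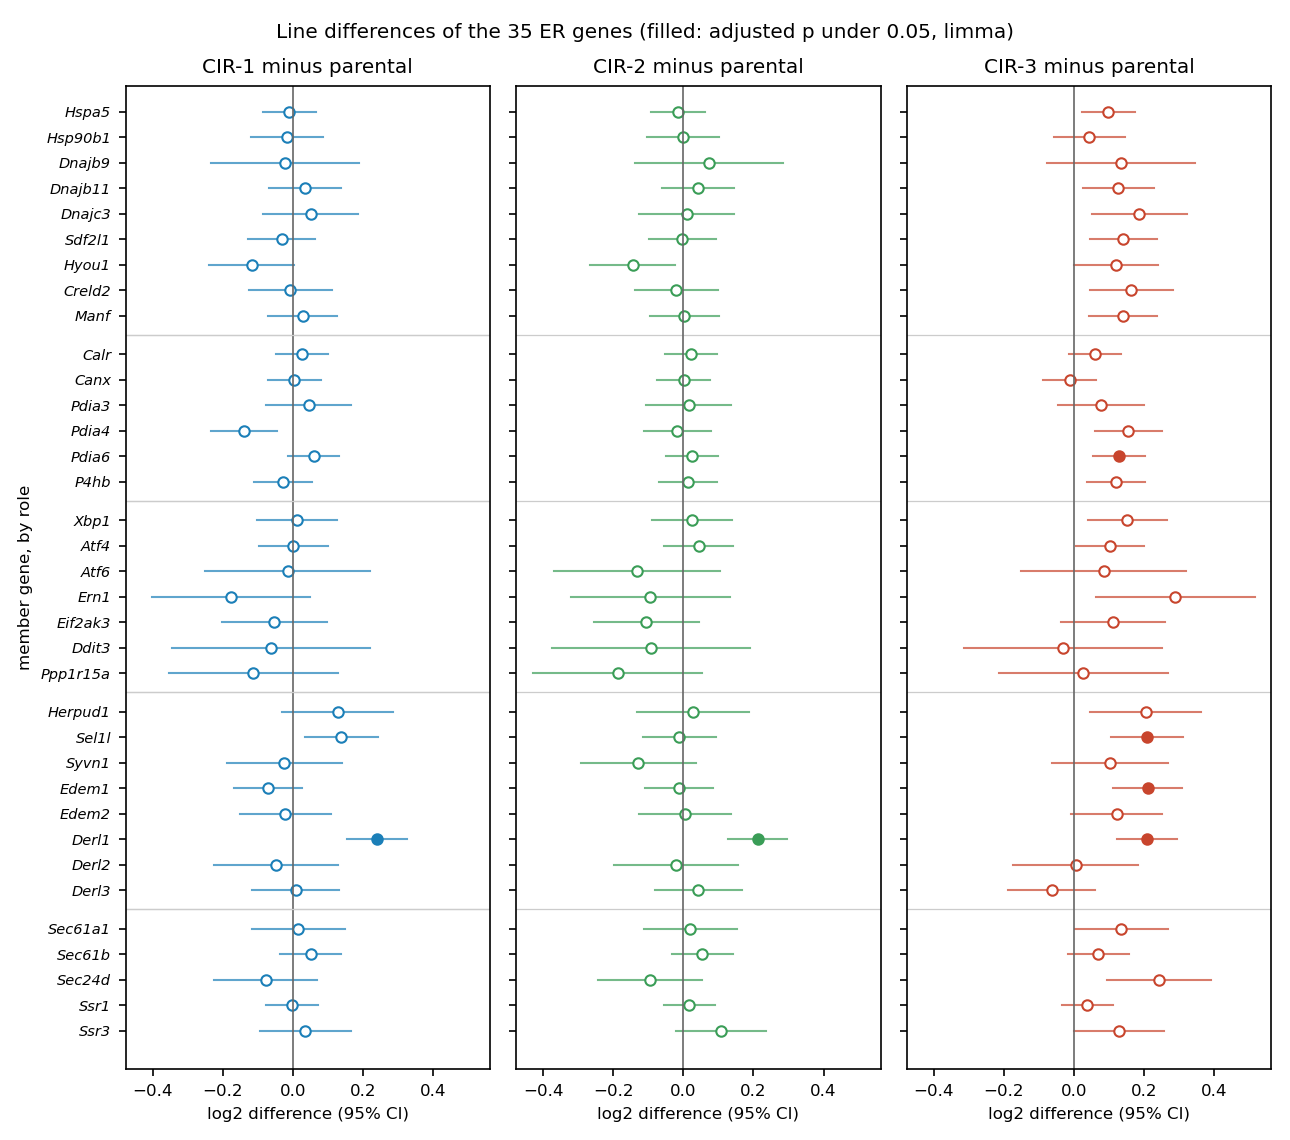
Log2 difference from parental cells of each member (x axis, with its 95% confidence interval) in a panel for each CIR line, mean of both conditions, with genes grouped by role on the y axis and filled points for adjusted p under 0.05 in limma. In CIR-3 32 of 35 points lie right of 0, against 16 in CIR-1 and 19 in CIR-2, and Derl1 is the filled point in all 3 panels.

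Derl1, a membrane protein of the retrotranslocation channel, was the member higher in every CIR line. Its 6 parental values without Hyper-IL-6 ran from 11.36 to 11.42 (median 11.39), those of CIR-1 from 11.58 to 11.69 (median 11.63), of CIR-2 from 11.53 to 11.69 (median 11.61) and of CIR-3 from 11.51 to 11.70 (median 11.58). Every CIR array lay above every parental array, and the 3 CIR lines overlapped. The rise was 0.24 (SE 0.041, 1.18-fold, adjusted p = 0.00042) in CIR-1, 0.21 (SE 0.041, adjusted p = 0.00208) in CIR-2 and 0.21 (SE 0.041, adjusted p = 0.00245) in CIR-3. These 3 comparisons share the parental arrays. Of the 7 exon-level probe sets of Derl1, from the same arrays, all 7 were higher for CIR-1 and for CIR-3, and 6 for CIR-2.

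Derl1 was also the only member called in CIR-1 (4.91% of all genes called) and in CIR-2 (3.8% called). The members as a whole did not lie to one side there, with 16 of 35 above 0 in CIR-1 (median -0.01) and 19 of 35 in CIR-2 (median 0.00), against 50.4% and 48.0% of all genes. With the replicate block, CIR-1 had 3 called (8.3% of all genes called). These were Derl1, Sel1l, higher by 0.14 (adjusted p = 0.0152), and Pdia4, lower by a difference of -0.14 (adjusted p = 0.0483). Leaving out parental unstimulated array 5 (4.38% of all genes called) or parental GFP-PFC array 6 (4.17%) gave 2 called, with Pdia4 beside Derl1.

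Edem1, which passes misfolded glycoproteins on for degradation, separated CIR-3 from all other lines. Its CIR-3 values were 11.63, 11.59 and 11.78 unstimulated and 11.69, 11.57 and 11.76 with GFP-PFC. The 6 values ran from 11.42 to 11.50 in parental cells, from 11.26 to 11.51 in CIR-1 and from 11.37 to 11.52 in CIR-2, and the 3 Hyper-IL-6 arrays reached 11.53, so no array of another line reached the lowest CIR-3 array. Edem1 was higher in CIR-3 by 0.21 (SE 0.047, adjusted p = 0.00815) against parental cells, by 0.28 (adjusted p = 0.000497) against CIR-1 and by 0.22 (adjusted p = 0.00851) against CIR-2, and 13 of its 13 exon-level probe sets were higher in each of these comparisons, which share the CIR-3 arrays. In a fit of the compared arrays alone the adjusted p against parental cells was 0.0568.

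Sel1l, the adaptor that links Syvn1 to its substrates, ran from 11.57 to 11.72 in parental cells, from 11.74 to 11.86 in CIR-1, from 11.60 to 11.75 in CIR-2 and from 11.73 to 12.03 in CIR-3. It was higher in CIR-3 by 0.21 against parental cells (SE 0.050, adjusted p = 0.0142) and by 0.22 against CIR-2 (adjusted p = 0.0154). CIR-3 did not overlap with parental cells but did with CIR-1 and CIR-2. In the compared arrays alone, these calls were lost (adjusted p = 0.130 and 0.0725), and they were lost in 4 and 5 of 23 alternative fits in all. Pdia6, a disulfide isomerase, ran from 13.34 to 13.46 in parental cells and from 13.52 to 13.58 in CIR-3 without overlap, a rise of 0.13 (SE 0.035, adjusted p = 0.0369) that was lost in 13 of 23 alternative fits, among them median-centred arrays (adjusted p = 0.0587), the compared arrays alone (adjusted p = 0.214) and every fit without 1 CIR-3 array.

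Against CIR-1, 7 of 35 members rose in CIR-3 (2.8% of all genes called), namely Ern1, Sec24d, Pdia4, Edem1, Hyou1, Sdf2l1 and P4hb. The difference was above 0 for 32 of 35 (median 0.11), against 40.9% of all genes (median -0.02). Against CIR-2 there were 5 (2.33% of all genes called), namely Sec24d, Hyou1, Edem1, Sel1l and Pdia4. Again 32 of 35 lay above 0 (median 0.11), against 43.2% of all genes (median -0.02). Among the 4363 genes above the upper quartile on all 27 arrays, 64.2% lay above 0 against CIR-1 and 62.9% against CIR-2 (median 0.02 in both). Of the 29 members among them 27 did so in each (medians 0.10 and 0.11). CIR-2 against CIR-1 had no member called by limma (1.45% of all genes called), 2 members at an unadjusted p under 0.05, and 17 of 35 above 0 (46.7% of all genes). With the replicate block it had 1 (2.77% of all genes called), Sel1l, lower in CIR-2 by a difference of -0.15 (adjusted p = 0.0196). In an F-test among the 4 lines, 7 members were called (7.42% of all genes called), namely Pdia4, Ern1, Sel1l, Edem1, Derl1, Hyou1 and Sec24d.

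Of the genes described by line, Ern1 and Sec24d met the naming rule (called, with a difference of at least 0.3). That rule reads their own values in these data. The others were added after their values were seen. Sec24d, the coat subunit, was 10.24, 9.97 and 10.17 in unstimulated CIR-3 and 10.25, 10.02 and 10.17 with GFP-PFC, against ranges of 9.67 to 9.89 in CIR-1, 9.60 to 9.96 in CIR-2 and 9.72 to 10.11 in parental cells. All CIR-3 arrays lay above all CIR-1 and CIR-2 arrays, while parental cells overlapped. The differences were 0.32 (SE 0.071, adjusted p = 0.00954) against CIR-1, 0.34 (adjusted p = 0.00834) against CIR-2 and 0.24 (adjusted p = 0.0555, or 0.0133 with the replicate block) against parental cells. Of 23 exon-level probe sets, 23 were higher against CIR-1 and 23 against CIR-2.

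Pdia4, an isomerase with several thioredoxin-like domains, was lowest in CIR-1 and highest in CIR-3. It ran from 12.16 to 12.32 in CIR-1, from 12.28 to 12.39 in CIR-2, from 12.23 to 12.48 in parental cells and from 12.45 to 12.57 in CIR-3. CIR-3 did not overlap with CIR-1 or CIR-2, and the difference was 0.29 (SE 0.046, 1.23-fold, adjusted p = 0.000204) against CIR-1 and 0.17 (adjusted p = 0.0452) against CIR-2. The second call was lost in 15 of 23 alternative fits. Against parental cells the difference was 0.16 (adjusted p = 0.0557, or 0.0250 with the replicate block).

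Ern1 encodes Ire1, the sensor that splices Xbp1 mRNA, and its CIR-3 arrays were split. They were 10.20, 10.00 and 10.64 unstimulated and 10.23, 9.97 and 10.73 with GFP-PFC, so that arrays 5 and 6 exceeded all other arrays of the study. CIR-1 ran from 9.67 to 9.94, CIR-2 from 9.69 to 10.10 and parental cells from 9.91 to 10.08. The rise against CIR-1 was 0.47 (SE 0.109, 1.38-fold, adjusted p = 0.0148), with 22 of 23 exon-level probe sets higher. This call was lost in 6 of 23 alternative fits. Among these were the compared arrays alone (adjusted p = 0.102) and the fits without CIR-3 array 5 or without CIR-3 array 6. Against parental cells the difference was 0.29 (adjusted p = 0.164, or 0.0280 with the replicate block).

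Hyou1, the exchange factor that recharges BiP, had the same split. In CIR-3 it was 11.94, 11.91 and 12.24 unstimulated and 11.95, 11.98 and 12.24 with GFP-PFC, against 11.75 to 11.86 in CIR-1, 11.71 to 11.90 in CIR-2 and 11.84 to 12.01 in parental cells. It was higher by 0.24 against CIR-1 (SE 0.058, adjusted p = 0.0200) and by 0.27 against CIR-2 (adjusted p = 0.0111), with no overlap in either. Both calls were lost in the compared arrays alone (adjusted p = 0.120 and 0.0686), and in 5 and 2 of 23 alternative fits in all. Sdf2l1, a partner of the BiP J-domain proteins, and P4hb, the archetypal disulfide isomerase, were higher in CIR-3 than in CIR-1 by 0.17 (adjusted p = 0.0412) and 0.15 (adjusted p = 0.0432), and lost their calls in 14 and 11 of 23 alternative fits.

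**Figure D2:**
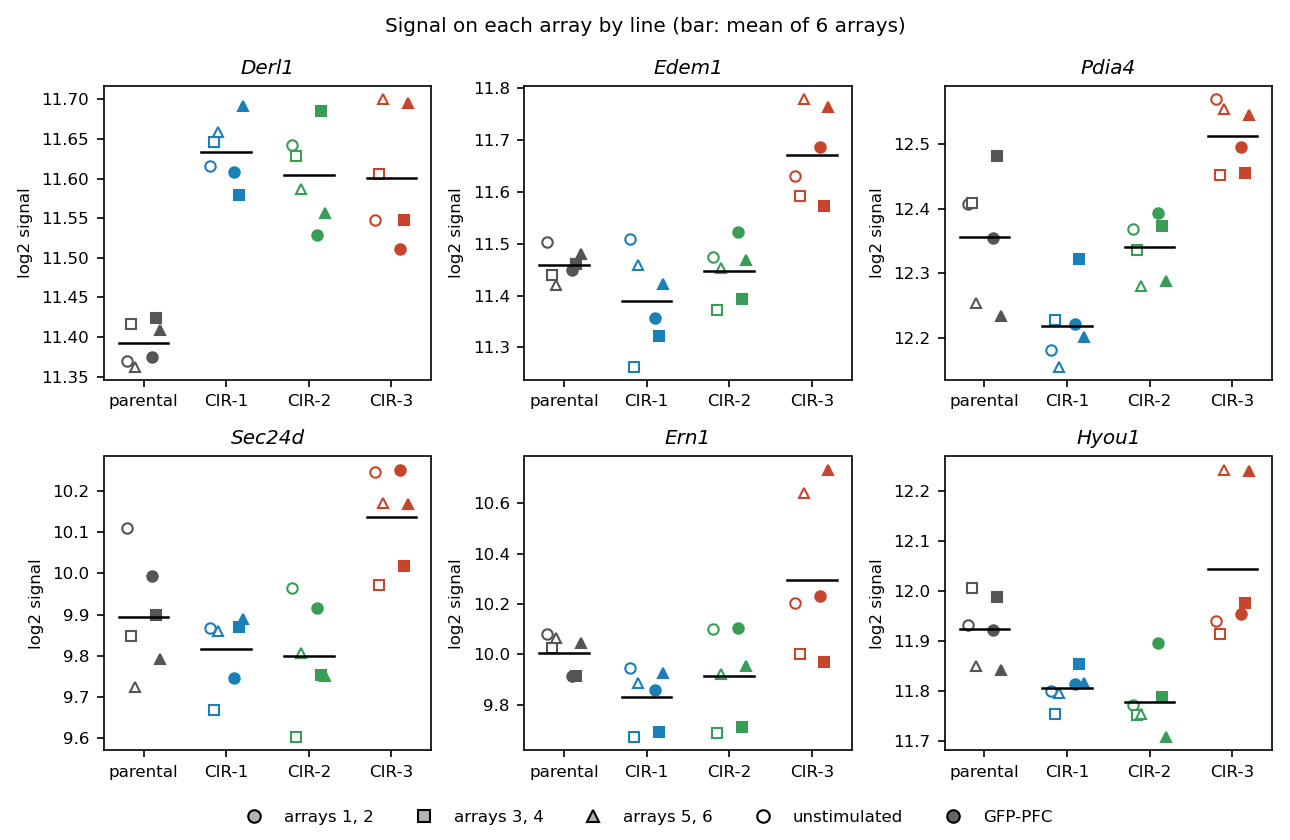
Log2 signal (y axis, a range of its own in each panel) of Derl1, Edem1, Pdia4, Sec24d, Ern1 and Hyou1 on the 24 arrays without Hyper-IL-6, by line, with symbols for pairs of array numbers, open for unstimulated and filled for GFP-PFC, and bars for the mean of 6 arrays. All CIR arrays exceed the parental ones in Derl1, all CIR-3 arrays exceed the rest in Edem1, and CIR-3 arrays 5 and 6 stand highest in Ern1 and Hyou1.

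The size of the CIR-3 difference depended on the array numbers. Within arrays 1 and 2, CIR-3 exceeded parental cells in 29 of 35 members (median 0.08), within arrays 3 and 4 in 24 (median 0.06) and within arrays 5 and 6 in 33 (median 0.25). Over all genes the median was 0.00, -0.03 and -0.03, with 51.5%, 42.0% and 42.4% above 0. Against CIR-1 the members' medians were 0.05, 0.09 and 0.16, with 25, 31 and 32 above 0 (45.5%, 43.7% and 41.9% of all genes). Against CIR-2 they were 0.07, 0.09 and 0.17, with 29, 27 and 34 above 0 (49.2%, 44.0% and 43.8% of all genes). The direction was thus shared by the 3 rounds and the size was largest in arrays 5 and 6 in each of these comparisons.

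Single members showed it too. Ern1 differed from parental cells by 0.22, 0.02 and 0.63 in the 3 rounds, Hyou1 by 0.02, -0.05 and 0.40, and Pdia4 by 0.15, 0.01 and 0.31. Edem1 differed by 0.18, 0.13 and 0.32 and Derl1 by 0.16, 0.16 and 0.31, so these were above 0 in each round.

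**Figure D3:**
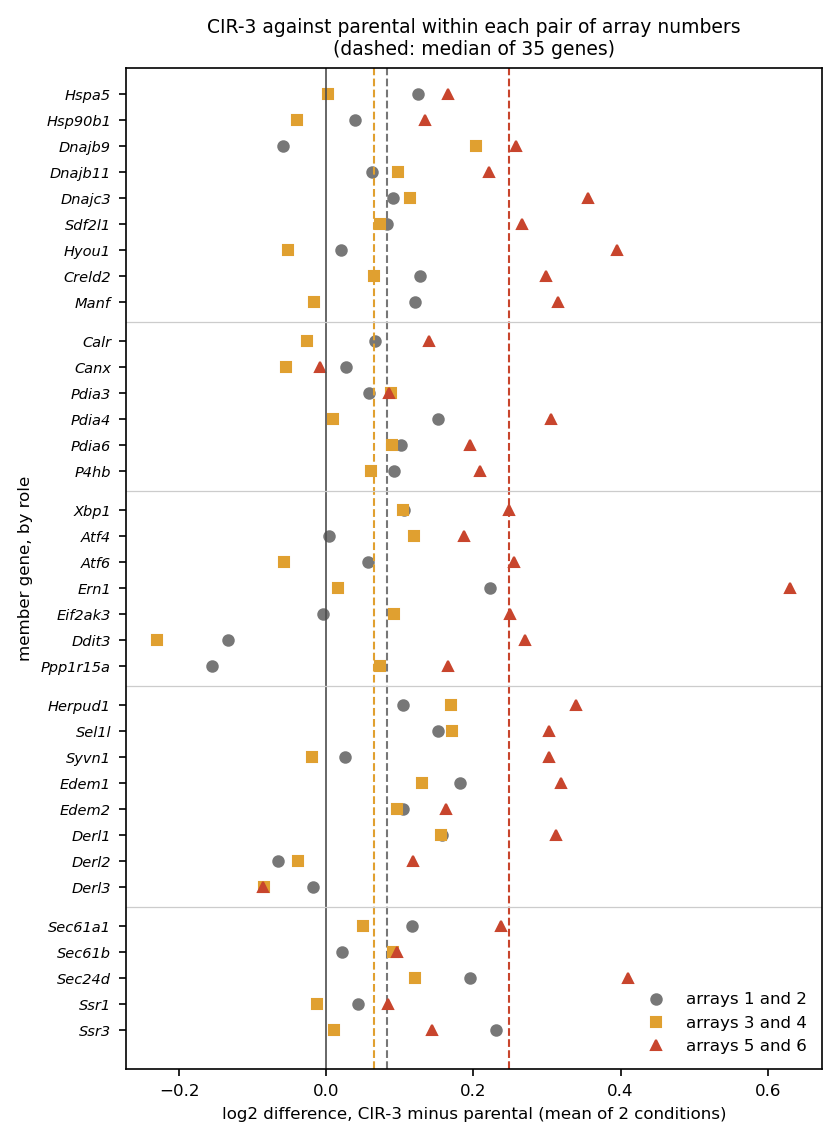
Log2 difference between CIR-3 and parental cells (x axis) for each member by role (y axis), as the mean of both conditions within arrays 1 and 2 (circles), 3 and 4 (squares) and 5 and 6 (triangles), with the median of each as a dashed line. The medians are 0.08, 0.06 and 0.25, and Ern1 in arrays 5 and 6 is the farthest point at 0.63.

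Leaving out CIR-3 arrays 5 and 6, a choice made after these values were seen, kept 1 call against parental cells (Derl1, 0.16, adjusted p = 0.0280), 2 against CIR-1 (Pdia4, 0.28, adjusted p = 0.00341, and Edem1, 0.23, adjusted p = 0.00924) and 0 against CIR-2, with 29, 27 and 29 of 35 members above 0 and medians of 0.09, 0.07 and 0.08. Of all genes 4.13%, 2.25% and 1.39% were called in these fits. Leaving out CIR-3 array 6 alone lowered the count against parental cells from 4 to 2 (3.84% of all genes called), and leaving out parental unstimulated array 1 raised it to 11 (10.1% of all genes called). Against CIR-1 the count was 3 without CIR-3 array 5 (2.48% of all genes called), without CIR-3 array 6 (2.43%) or without CIR-1 unstimulated array 3 (2.18%). Against CIR-2 it was 3 without CIR-3 array 5 (1.69%), CIR-3 array 6 (1.57%) or CIR-2 unstimulated array 3 (1.47%). With the replicate block, which takes up what arrays of a round share in all lines, the counts rose to 14 against parental cells (8.29% of all genes called), 11 against CIR-2 (5.2% called) and 14 in the F-test among lines (13.5% called), all of the 14 and 11 higher in CIR-3. Without arrays 1 and 2 of all groups, 12 members were called against parental cells (20.9% of all genes called), 10 against CIR-1 (6.47%) and 10 against CIR-2 (8.64%). The 14 were Pdia4, Pdia6, P4hb, Dnajc3, Sdf2l1, Xbp1, Ern1, Herpud1, Sel1l, Edem1, Derl1, Creld2, Sec61a1 and Sec24d.

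Markers of antibody-secreting plasma cells, which have an expanded ER, were looked at beside this. Of 6 measured plasma cell markers 3 lay above the lower quartile on all arrays (Sdc1, Mzb1 and Tnfrsf17), and Irf4 and Jchain lay below it on all of them. Their mean per array ran from 6.74 to 6.82 in CIR-3, inside the range of parental cells (6.66 to 6.92). The mean of 9 mast cell and basophil markers ran from 7.11 to 7.28 in CIR-3, 7.22 to 7.33 in CIR-1, 7.10 to 7.27 in CIR-2 and 7.50 to 7.86 in parental cells, so that CIR-3 lay below parental cells. The mean of 7 myeloid markers ran from 7.32 to 7.44 in CIR-3, above CIR-1 (7.05 to 7.17) and CIR-2 (7.12 to 7.22) without overlap and within the parental range (7.26 to 7.46). The mean of 6 erythroid and megakaryocyte markers ran from 8.86 to 8.93 in CIR-3, above parental cells (8.705 to 8.83) and below CIR-1 (9.07 to 9.14) and CIR-2 (8.96 to 9.04), without overlap. The mean of 4 T cell markers in CIR-3 (6.71 to 6.85) overlapped all other lines. These means can rest on few genes. Over the 27 arrays Fcer1a ran from 4.748 to 9.982 and Ms4a2 from 7.265 to 9.272, wider than the other mast cell and basophil markers. Mpo (8.459 to 11.56) had the widest range of the myeloid markers, and Klf1 (8.842 to 10.19) of the erythroid and megakaryocyte markers. The part of these markers in the line differences was not tested.

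Other genes of the same pathways were taken from 5 lists that do not include the members. In CIR-3 against parental cells, where 4.2% of all genes were called, 1 of 20 further folding genes rose (Ero1b, an oxidase that recharges disulfide isomerases, by 0.30, adjusted p = 0.0324), 1 of 17 degradation genes (the ubiquitin-conjugating enzyme Ube2g2, by 0.19, adjusted p = 0.0150), 1 of 30 translocon, signal peptidase, glycosylation and coat genes (the signal peptidase subunit Spcs2, by 0.25, adjusted p = 0.0485), 1 of 11 sensors and processing enzymes (the membrane-bound factor Creb3l2, by 0.45, adjusted p = 0.0370), and 0 of 17 targets of Atf4 and CHOP. None of them fell. The median differences of these 5 lists were 0.07, 0.07, 0.06, 0.02 and 0.02. Sil1, another exchange factor of BiP, was higher in CIR-3 than in CIR-1 by 0.14 (adjusted p = 0.0253) and than in CIR-2 by 0.21 (adjusted p = 0.000479), and the proteinase Mbtps1, which activates Atf6, was higher than in CIR-2 by 0.15 (adjusted p = 0.0474).

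In CIR-1 the ubiquitin ligase gene Rnf5, the translocon-associated Ssr4 and the oxidase Ero1a fell by 0.20, 0.27 and 0.45 (adjusted p = 0.0106, 0.00104 and 0.00147), and no gene of the 5 lists rose. In CIR-2 Ero1a and Sil1 fell by 0.40 and 0.14 (adjusted p = 0.00640 and 0.0187) and Rpn1, a subunit of the oligosaccharyl transferase, rose by 0.16 (adjusted p = 0.0153). Ssr4 was higher in CIR-2 than in CIR-1 by 0.22 (adjusted p = 0.0183).

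Hyper-IL-6 is the ligand on which the cells depend, and here it was the positive control of stimulation. After 1 h in parental cells limma called no member (0.773% of all genes called), 4 members had an unadjusted p under 0.05, and the smallest adjusted p of a member was 0.452. In 30 of 35 members the difference lay above 0, with a median of 0.04, against 44.0% of all genes and a median of -0.01. Among the bright genes it was above 0 for 56.9% and for 26 of 29 members. The 95% intervals of the members reached from -0.84 (Ddit3) to 0.80 (Ppp1r15a), so a change of that size in single members is not excluded.

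Ppp1r15a was 8.36, 8.34 and 8.51 unstimulated and 8.46, 9.01 and 9.11 with Hyper-IL-6. Arrays 4 and 6 were high and array 2 lay within the unstimulated range. The difference of 0.46 (SE 0.165, adjusted p = 0.452) was called with the replicate block (adjusted p = 0.0172), without Hyper-IL-6 array 2 (0.66, adjusted p = 0.0460), with array weights (0.54, adjusted p = 0.00570) and without arrays 1 and 2 (0.64, adjusted p = 0.00496).

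Atf6 was 11.15, 11.50 and 11.57 unstimulated and 11.67, 11.81 and 11.78 with Hyper-IL-6. All 3 stimulated arrays were higher, and unstimulated array 1 was far below the others. The difference was 0.34 (SE 0.161, adjusted p = 0.729), and the replicate block, in which 2 members were called (1.63% of all genes called), gave an adjusted p of 0.0323 for Atf6. The Hyper-IL-6 arrays did not deviate from their group mean together with the GFP-PFC arrays of the same number (r of -0.299 to 0.0601), so their place in that block is uncertain.

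Ddit3, the factor CHOP, which follows Perk and Atf4, was 9.90, 9.55 and 9.51 unstimulated and 9.27, 9.23 and 9.15 with Hyper-IL-6. The groups did not overlap and the difference was -0.44 (SE 0.193, adjusted p = 0.674). In all, 6 of 35 members had groups without overlap, against 8.81% of all genes. Hspa5 was 13.80, 13.85 and 13.81 unstimulated and 13.87, 14.00 and 13.97 after Hyper-IL-6, also without overlap, a difference of 0.13 (SE 0.052, adjusted p = 0.577). With array weights Hspa5 was called (0.16, adjusted p = 0.0155), and over its 15 alternative fits the adjusted p ran from 0.0155 to 1.

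Xbp1 was 13.01, 13.01 and 13.00 and then 13.08, 13.14 and 13.11, without overlap, with a difference of 0.10 (SE 0.077, adjusted p = 0.954). Atf4 was 11.88, 11.83 and 11.84 and then 11.85, 11.86 and 11.92, overlapping, with a difference of 0.03 (SE 0.067). The array reports total Xbp1 signal and does not separate its spliced form.

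**Figure D4:**
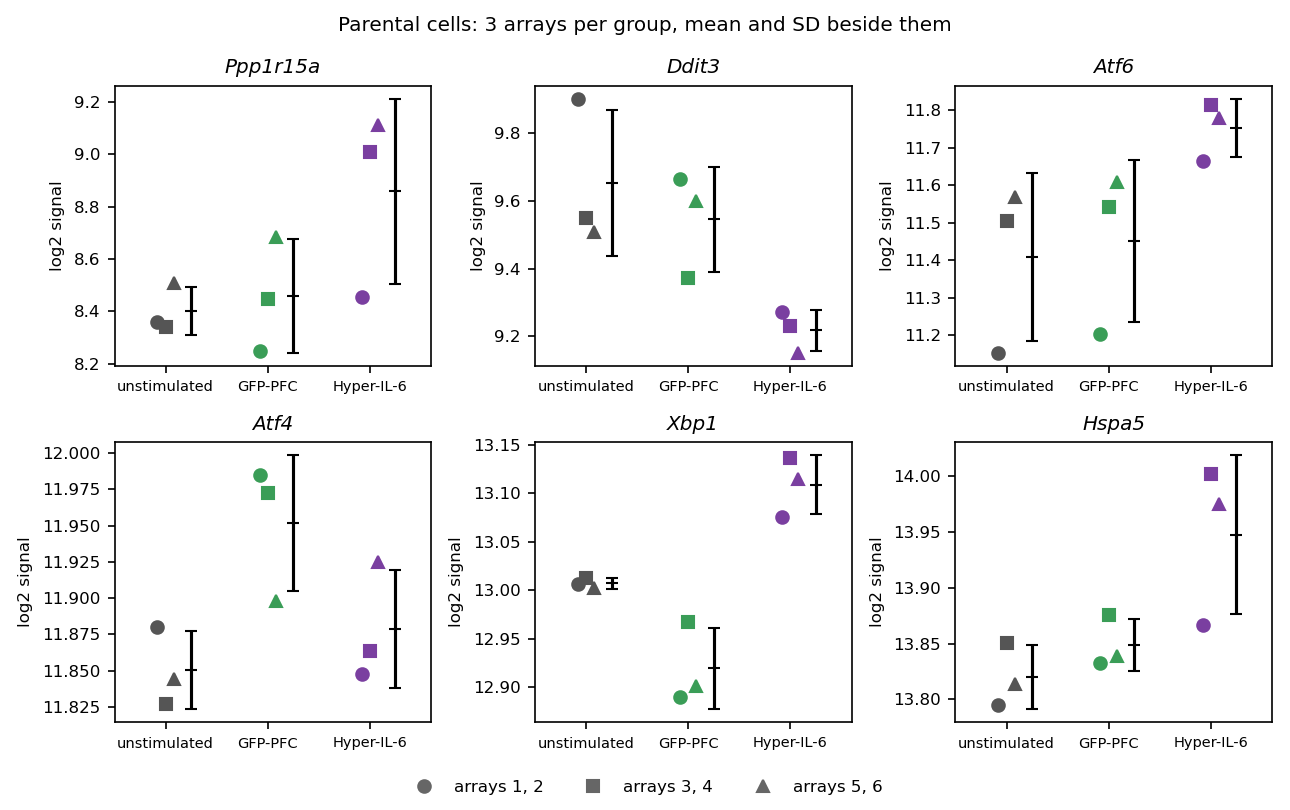
Log2 signal (y axis, a range of its own in each panel) of Ppp1r15a, Ddit3, Atf6, Atf4, Xbp1 and Hspa5 on the 3 unstimulated, 3 GFP-PFC and 3 Hyper-IL-6 arrays of parental cells, with mean and SD beside the points and symbols for pairs of array numbers. Hyper-IL-6 arrays lie above the unstimulated ones in Atf6, Xbp1 and Hspa5 and below them in Ddit3, and no difference was called.

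Of the 17 measured targets of Atf4 and CHOP, 2 rose after Hyper-IL-6, the stress protein gene Nupr1 by 1.25 (SE 0.154, adjusted p = 2.67e-05) and the transcription factor gene Cebpb by 0.52 (SE 0.087, adjusted p = 0.00159). The list as a whole had 10 of 17 genes above 0 and a median difference of 0.03. Atf4 and Ddit3 themselves were not called, and whether the rise of Nupr1 and Cebpb passed through them was not tested. The other 4 lists had none of 20, 17, 30 and 11 genes called. Hyper-IL-6 against GFP-PFC in parental cells called no member (0.507% of all genes called), with 3 at an unadjusted p under 0.05, and Nupr1 and Cebpb were again higher, by 1.16 (adjusted p = 9.78e-05) and 0.39 (adjusted p = 0.0392). That comparison shares the Hyper-IL-6 arrays with the one above.

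In the study's title the receptors are named for taking up cargo, and GFP-PFC was given to every line. As the mean difference over the 4 lines limma called no member (0.221% of all genes called), and 1 had an unadjusted p under 0.05. Of the 35 members 17 lay above 0 (median -0.0002), against 40.2% of all genes (median -0.01). The differences ran from -0.18 (Ddit3) to 0.08 (Ppp1r15a), with 95% intervals within -0.38 to 0.25. With parental cells and each CIR line taken singly no gene at all was called (0% in each of the 4), and 0, 1, 0 and 0 members had an unadjusted p under 0.05. An F-test of whether the GFP-PFC difference varied among the lines called no member (0%), and 0 had an unadjusted p under 0.05.

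Xbp1 was the member with the smallest p. In each of the 12 pairs of consecutive arrays of a line the GFP-PFC array was the lower. Unstimulated and GFP-PFC values were 13.01, 13.01 and 13.00 against 12.89, 12.97 and 12.90 in parental cells, 12.92, 12.99 and 13.17 against 12.86, 12.82 and 13.09 in CIR-1, 13.02, 12.97 and 13.17 against 12.82, 12.89 and 13.05 in CIR-2, and 13.13, 13.17 and 13.26 against 12.98, 13.02 and 13.14 in CIR-3. The groups did not overlap in parental cells, and the mean difference was -0.12 (SE 0.039, unadjusted p = 0.00614, adjusted p = 0.412 in limma). With the replicate block the adjusted p was 0.0749, and with that block and no Hyper-IL-6 arrays, a fit added after the data were seen, it was 0.0455.

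Ddit3 differed by -0.18 (SE 0.097, adjusted p = 0.889) and was higher with GFP-PFC in 3 of 12 pairs, the widest gap being in CIR-3. Its values there were 9.85, 9.45 and 9.94 unstimulated and 9.45, 9.01 and 9.71 with GFP-PFC. For Atf4 the difference was 0.06 (SE 0.034, adjusted p = 0.880) and for Creld2 0.06 (SE 0.040, adjusted p = 0.933), with the GFP-PFC array higher in 11 of 12 pairs for both. For Hspa5 it was 0.03 (SE 0.026, adjusted p = 0.986), and 10 of 12 pairs were higher. No gene of the 5 further lists was called.

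More members were called between array numbers than in any comparison of lines or stimulations fitted without a block. Within groups, arrays 1 and 2 differed from arrays 3 to 6 in 21 of 35 members by limma (11 higher, 10 lower), at 41.9% of all genes called. Among the 4363 genes above the upper quartile on all arrays, 66.1% were called, and 16 of the 29 members among them. Those members were thus not called more often than genes of like signal. Centring each array on its median gave 23 of 35 members called, 18 of them higher (35.1% of all genes called), so that the split of directions rests on the scaling. Atf6 had the largest difference, -0.33 (SE 0.041, adjusted p = 2.83e-06), and was lowest on array 1 or 2 in 8 of 8 groups. In unstimulated cells, for example, its arrays 1, 3 and 5 were 11.27, 11.35 and 11.65 in CIR-1 and 11.09, 11.34 and 11.42 in CIR-2.

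Derl2, a derlin of the same family as Derl1, was higher on those arrays by 0.27 (adjusted p = 2.29e-06), highest there in 8 of 8 groups, and the BiP partner Dnajb9 by 0.20 (adjusted p = 0.000507). Edem2, Sec61a1, Ssr3, Sel1l and Herpud1 were lower by 0.11 to 0.19 in size. Ppp1r15a was lower (-0.24, adjusted p = 0.000538) and Ddit3 higher (0.21, adjusted p = 0.0112). Hspa5 (0.01), Hyou1 (-0.01), Edem1 (0.04) and Pdia4 (0.03) were not called.

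**Figure D5:**
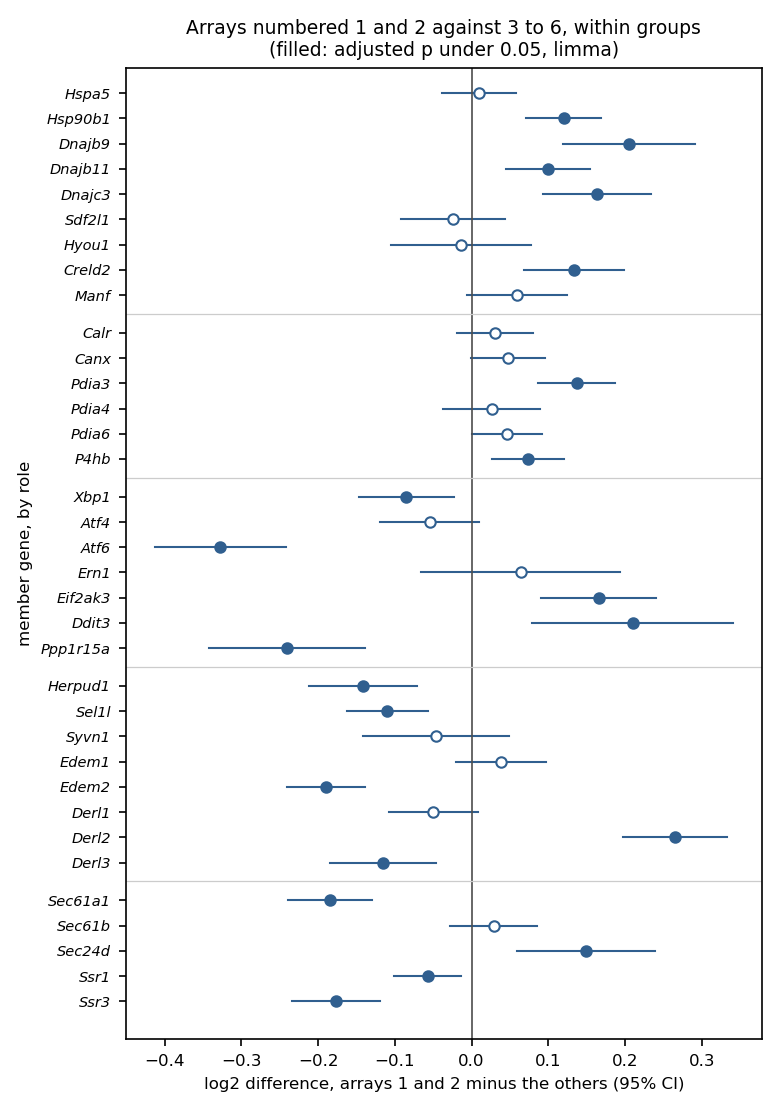
Log2 difference between arrays 1 and 2 and arrays 3 to 6 within groups (x axis, with the 95% confidence interval) for each member by role (y axis), over the 24 arrays without Hyper-IL-6, with filled points for adjusted p under 0.05 in limma. Differences run from -0.33 (Atf6) to 0.27 (Derl2), and 21 of 35 points are filled.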

How the data were processed

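For each of the 27 arrays the authors deposited a gene-level and an exon-level table from Affymetrix Expression Console, at its core level, per the labels. The deposited values lay between 2.97 and 14.9 and were read as log2 signal. The summary algorithm, normalization, program version and log base are not given in the sources used here, and the deposited scale was kept. Precision is limited by the number of arrays.

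In the gene-level table of 35556 probe sets, 21789 carried 1 symbol in GEO's platform annotation, 1621 several and 12146 none, and symbols were updated through RefSeq (Entrez number, then unique synonym). Tests used limma 3.58.1 under R 4.3.3, with the data.table package at 1.17.8, and 1 mean per group over 27 arrays, two-sided, and the fit was tested on simulated data. Promoters were searched in Python 3.11.15. Alternatives were a replicate block by round, the compared arrays alone, array weights, median-centred arrays, no dim genes, exon-level values, a trended robust prior, every probe set, no arrays 1 and 2, and each array left out. The numbers were taken to pair unstimulated and GFP-PFC arrays, since deviations from group means correlated above 0.1 in 12 of 12 consecutive pairs within a line, 18 of 18 unstimulated and 18 of 18 GFP-PFC pairs of the same number, but in 0 of 12 pairs of Hyper-IL-6 with GFP-PFC arrays.

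Every member is named with its level. Array values are given for called members with a difference of at least 0.3 (at most 6 per comparison), for Hspa5, Xbp1, Ddit3 and Atf4 and for the 3 of largest spread, and up to 4 called genes of each other list are named. Array values of other members were added after they were seen. The members and lists were chosen with earlier results of these data known.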

Additional observations from a re-analysis of the deposited data

How the results depend on the processing

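Among the named differences that were recomputed, direction was kept in the alternative fits run, except for Ern1 after GFP-PFC (mean of 4 lines, -0.01), which became 0.0192 with array weights, 0.00597 with median-centred arrays and 0.00636 without arrays 1 and 2, and ran from -0.0668 to 0.0306 in fits without 1 array. Counts of members called moved most, and the share of all genes called moved too. With the replicate block that share went from 4.2% to 8.29% for CIR-3 against parental cells. In the F-test among lines it went from 7.42% to 13.5%. The member counts that follow are printed without this share and are not results about the members alone. For Hyper-IL-6 against unstimulated cells (0 called) they were 2 with the replicate block, 3 with array weights and 3 without arrays 1 and 2, and against GFP-PFC 2 with array weights. For GFP-PFC (0) the replicate block without Hyper-IL-6 arrays gave 1. For CIR-1 against parental cells (1) both replicate block fits gave 3, and for CIR-2 array weights gave 2. For CIR-3 against parental cells (4) the count was 14 with the replicate block, 19 with it and no Hyper-IL-6 arrays, 1 in the compared arrays alone, 10 with array weights, 7 with the trended prior, 12 without arrays 1 and 2 and 1 without CIR-3 arrays 5 and 6. For CIR-2 against CIR-1 (0) it was 1 with either replicate block and with array weights. For CIR-3 against CIR-1 (7) it was 3 in the compared arrays alone, 13 with the replicate block and no Hyper-IL-6 arrays and 2 without CIR-3 arrays 5 and 6, and against CIR-2 (5) it was 11 and 20 with the 2 replicate blocks, 2 alone, 12 with array weights, 10 without arrays 1 and 2 and 0 without CIR-3 arrays 5 and 6. The F-test among lines (7) gave 14, 20, 14 and 11 with the replicate block, the block without Hyper-IL-6 arrays, array weights and the trended prior. Leaving out 1 array gave 0 to 1 for Hyper-IL-6, 1 to 2 for CIR-1, 2 to 11 for CIR-3 against parental cells, 3 to 6 against CIR-1, 3 to 6 against CIR-2 and 6 to 9 for the F-test. The compared-arrays fits hold fewer arrays, and the other causes were not tested. The replicate block ended no call among these named differences. Derl1 stayed called in all 22, 22 and 23 alternatives in the 3 CIR lines. Ppp1r15a had no exon-level value.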
